A study of Mus musculus with 6 samples.

Results

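The Ly6 and Thy1 surface antigen genes are 6 genes for small proteins on the outside of lymphocytes, out of 25654 genes with a value in the files. The set holds Thy1, Ly6a, Ly6e, Ly6c1, Ly6c2 and Ly6g, and Ly6c1 and Ly6c2 were also summed because their sequences are nearly the same. The 6 genes were chosen by name from values of these same libraries, with the differences between aged and young cells already in view. Their differences with age are therefore given as a description, with no test.

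LY6 proteins and THY1 have no part that crosses the membrane. Each is held in the outer leaflet by a glycosylphosphatidylinositol (GPI) anchor, a sugar and lipid group that is built in the endoplasmic reticulum and joined to the end of the protein. Proteins with this anchor gather in cholesterol-rich patches of membrane together with kinases of the Src family. Antibodies to them are among the oldest markers of mouse lymphocytes: THY1 marks T cells, LY6A (Sca-1) and LY6C are interferon-inducible antigens of activated and memory T cells, and LY6G is the usual marker of neutrophils.

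RNA was measured in CD8 T cells, the killer lymphocytes, from the spleens of wild-type (WT) female C57BL/6 mice. The Young group came from mice of 6 weeks and the Aged group from mice of around 65 weeks, with 3 libraries in each. All cells were stimulated for 2 days with plate-bound anti-TCR-β antibody at 3 µg/ml and anti-CD28 antibody at 1 µg/ml in IL-2 (interleukin 2, a T cell growth factor) at 10 ng/ml, and were then kept in IL-2 for another 5 days, 7 days in all. None of the 6 libraries came from unstimulated or freshly isolated cells, so the levels below are those of cultured, activated cells. The labels call the libraries biological replicates without saying whether each came from its own mouse, so p-values measure only the spread between these libraries.

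The libraries held 1952552 to 2785915 reads, and values are in CPM, reads scaled so that each library sums to 1000000. One read is worth 0.359 to 0.512 CPM, and a value of 0 allows up to 3 reads, or 1.08 to 1.54 CPM, for counting error only. The QuantSeq method reads the 3' end of each transcript, so a value does not grow with gene length and levels of different genes can be set side by side. In the summed level of 9 T cell and CD8 genes the young libraries stood at 2798 to 2904 CPM and the aged libraries at 2242 to 2404 CPM, with the most abundant, Cd3d, at 773 ± 34.7 and 581 ± 14.4 CPM (mean ± SD, n = 3 libraries per group, as throughout). Cd4 was at 0 to 0.384 CPM, within the floor of a library. In bulk RNA fewer cells of a type and less RNA per cell cannot be told apart.

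The Ly6 members lie in one gene cluster. On GRCm38, within 204.1 kb of chromosome 15, the annotation places Ly6e (ENSMUSG00000022587, chr15:74955051-74959905, plus strand), Ly6a (ENSMUSG00000075602, chr15:74994877-74998031, minus strand), Ly6c1 (ENSMUSG00000079018, chr15:75044018-75048830, minus strand), Ly6c2 (ENSMUSG00000022584, chr15:75108158-75111970, minus strand) and Ly6g (ENSMUSG00000022582, chr15:75155240-75159126, plus strand). These 5 are among 6 protein-coding genes of that span, the other being Ly6i. Thy1 (ENSMUSG00000032011, chr9:44043384-44048579, plus strand) lies apart and belongs to the immunoglobulin superfamily. No exon of a member overlaps an exon of another annotated gene.

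Promoters were sought for all 6 members and are shown for those found, Ly6c1, Ly6c2 and Ly6g, neighbours that arose by duplication. RefSeq sequences on GRCm38.p6 were matched for these 3 of the 6 members and not for Ly6a, Ly6e and Thy1. Each run is the 250 bases before RefSeq's transcript start, 5′ to 3′ on the gene's own strand, at chr15:75048838-75049087 for Ly6c1 (minus strand), chr15:75111972-75112221 for Ly6c2 (minus strand) and chr15:75155011-75155260 for Ly6g (plus strand). Capitals mark a match to one of 4 motifs searched on both strands.
Ly6c1: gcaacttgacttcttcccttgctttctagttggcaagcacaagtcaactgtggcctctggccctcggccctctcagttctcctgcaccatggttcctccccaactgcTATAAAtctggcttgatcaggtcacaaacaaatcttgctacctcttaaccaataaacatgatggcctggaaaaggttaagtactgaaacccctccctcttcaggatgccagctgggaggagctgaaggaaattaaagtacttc
Ly6c2: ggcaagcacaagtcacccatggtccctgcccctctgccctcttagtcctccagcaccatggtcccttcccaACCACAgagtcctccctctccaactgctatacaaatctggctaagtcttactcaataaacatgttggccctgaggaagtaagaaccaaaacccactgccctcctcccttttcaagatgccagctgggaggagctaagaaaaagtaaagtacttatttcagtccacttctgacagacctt
Ly6g: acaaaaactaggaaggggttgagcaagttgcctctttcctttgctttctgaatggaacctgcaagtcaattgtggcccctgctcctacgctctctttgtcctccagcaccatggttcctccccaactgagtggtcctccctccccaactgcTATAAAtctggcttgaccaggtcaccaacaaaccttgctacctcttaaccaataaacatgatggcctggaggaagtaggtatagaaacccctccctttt

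The run TATAAA stood in the windows of Ly6c1, with its first base 143 bases before the start, and of Ly6g, 99 bases before it, and was not in that of Ly6c2. TGTGGT, the core that RUNX factors bind, was in the window of Ly6c2 alone of the 3, with its first base 179 bases before the start, on the opposite strand so that the printed strand reads ACCACA. The letters TTCNNNGAA, an interferon-gamma activated site, and GAAANNGAA, an interferon response core, were in none of these windows. Of 32851 RefSeq promoter windows of the same length, TATAAA was in 12.4%, TGTGGT in 14.05%, TTCNNNGAA in 7.02% and GAAANNGAA in 7.13%, and no matches overlapped each other in the printed windows. In local alignments the Ly6c1 and Ly6g windows were identical at 75.8% of 231 aligned positions, those of Ly6c1 and Ly6c2 at 73.0% of 233, and those of Ly6c2 and Ly6g at 67.3% of 199. A match of letters is a description of the sequence and was not tied to binding by any measurement here.

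The sequence of the 3' end decides how far the reads of one member can be told from those of another. Over the last 300 bases of their transcripts Ly6c1 and Ly6c2 were identical at 93.5% of 307 aligned positions, and over the coding sequence at 97.7% of 393. In each of the 2 ends 75 of 251 stretches of 50 bases (29.9%) and 50 of 226 stretches of 75 bases (22.1%) occurred unchanged in the other gene. The ends of Ly6g, Ly6a, Ly6e and Thy1 shared no such stretch with another member, although Ly6g was identical to Ly6c2 at 80.5% and to Ly6a at 80.65% of aligned positions. Neither the read length nor the treatment of reads with several matches was given in the sources at hand. The division between Ly6c1 and Ly6c2 is therefore uncertain. Their sum does not depend on that division, but it, like each gene, would be too low if reads matching both were left out.

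Among the 6 members the groups did not overlap in 4, of which Thy1, Ly6e and Ly6c1 were higher and Ly6c2 was lower in aged cells, and they overlapped in Ly6a and Ly6g. Over all 10511 genes tested the groups did not overlap, and were higher in aged cells, in 22.5%, and were lower in 18.3%. Since the choice of members used this contrast, nothing is read from their count or from their median difference. All 6 passed the filter of a mean of at least 1 CPM. On the log2(CPM + 1) scale the median difference of the members, aged minus young, was 0.20, beside 0.03 for all genes tested.

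**Figure D1:**
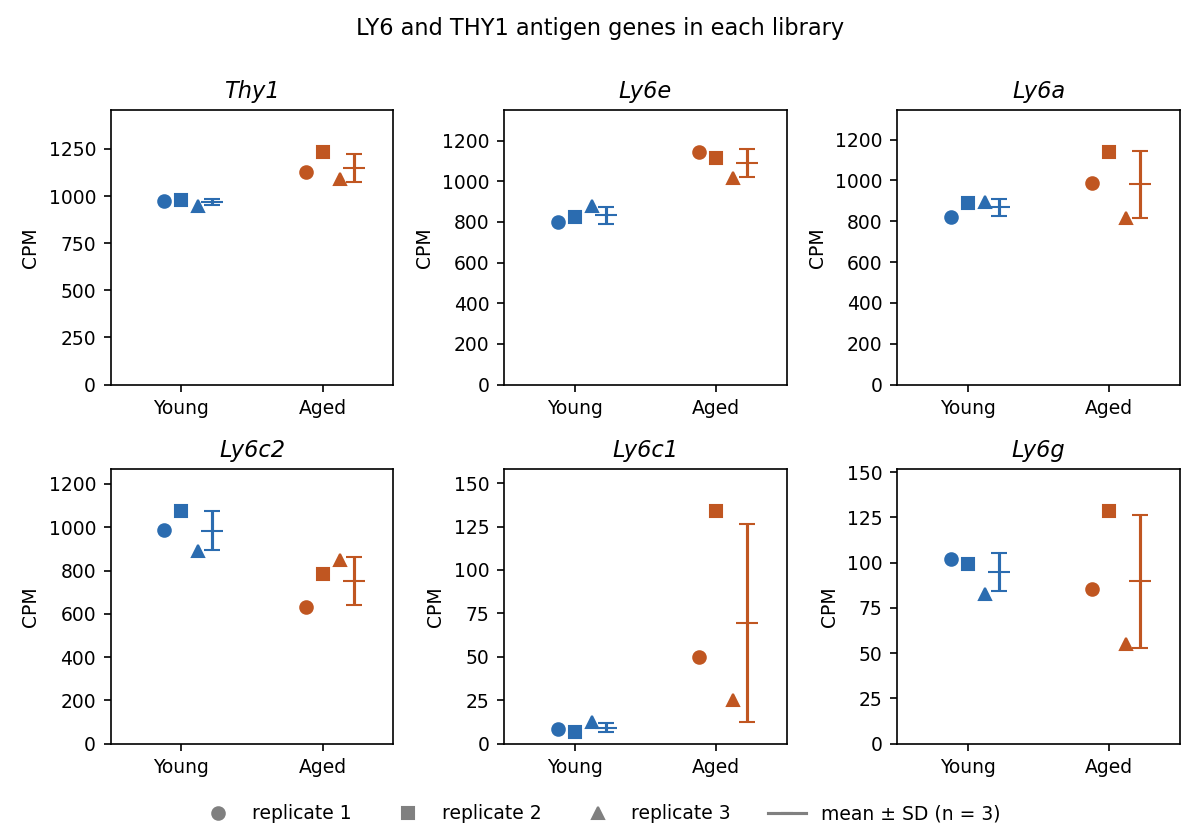
CPM (y axis, from 0, scaled separately in each panel) of the 6 members in the 3 Young and 3 Aged libraries (x axis), with replicate number shown by marker shape and the bar giving mean ± SD (n = 3). Thy1 and Ly6e are higher and Ly6c2 is lower in every aged library, while Ly6c1 and Ly6g are widely spread among the aged libraries, with Aged replicate 2 at 134 and 128 CPM.

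Thy1 encodes THY1 (CD90), the antigen found on nearly all mouse T cells. Its level was 976, 977 and 949 CPM in Young replicates 1, 2 and 3 and 1127, 1233 and 1089 CPM in Aged replicates 1, 2 and 3. All aged libraries lay above all young ones. The means were 968 ± 16.3 and 1150 ± 74.9 CPM, 1.19-fold higher in aged cells, with a log2 difference of 0.25 ± 0.06 (SE). With upper-quartile scaling the difference was 0.16. Thy1 ranked 143rd of the genes tested by mean level and was the most abundant member in aged cells. The summed T cell and CD8 markers above were lower in aged cells, but not each of them: Cd3d, Cd3e, Cd3g, Cd8b1 and Cd2 were lower in every aged library, while Cd247, Lck, Cd5 and Cd8a overlapped between the groups. Cd8a was 266, 276 and 268 CPM in Young and 321, 344 and 244 CPM in Aged replicates 1 to 3. The part of these genes' cells in the difference of Thy1 was not tested.

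Ly6e, known for restricting the entry of some viruses and for its induction by interferon, was 797, 822 and 879 CPM in Young replicates 1 to 3 and 1143, 1114 and 1014 CPM in Aged replicates 1 to 3. The aged libraries were again all above the young ones. The means were 833 ± 41.7 and 1090 ± 67.8 CPM, 1.31-fold higher in aged cells, and the log2 difference was 0.39 ± 0.07 (SE).

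Ly6a, the gene of Sca-1, an antigen of blood stem cells that activated T cells also carry, was 820, 890 and 896 CPM in Young replicates 1 to 3 and 988, 1139 and 815 CPM in Aged replicates 1 to 3. Aged replicate 3 lay below every young library and the other aged libraries above them all, so the groups overlapped. The means were 869 ± 42.5 and 981 ± 162 CPM, and the log2 difference of 0.16 ± 0.15 (SE) was about as large as its error. It was 0.05 without Aged replicate 2 and 0.29 without Aged replicate 3. The spread was larger among aged libraries, where the highest was 1.40 times the lowest, than among young ones, where it was 1.09 times.

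Ly6c2, a gene of the LY6C antigen, by which memory CD8 T cells are often divided, was 989, 1074 and 891 CPM in Young replicates 1 to 3 and 631, 783 and 847 CPM in Aged replicates 1 to 3. The groups did not overlap, with Young replicate 3 and Aged replicate 3 the nearest to each other. The means were 985 ± 91.3 and 754 ± 111 CPM, 1.31-fold lower in aged cells, with a log2 difference of -0.39 ± 0.15 (SE). Ly6c2 was the single member with a lower level in all aged libraries than in all young ones.

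LY6C is also the antigen of inflammatory monocytes, so monocyte and macrophage markers are given beside it. Their summed level over 13 genes was 822 to 875 CPM in the young and 516 to 561 CPM in the aged libraries. Of these genes 6 were at 0 in every library (Lyz2, Adgre1, Fcgr1, C1qa, C1qb and C1qc) and 8 did not pass 3 reads in any. The most abundant was Ccr2, a chemokine receptor that effector T cells express too, at 706 ± 25.3 CPM in the Young and 418 ± 34.9 CPM in the Aged group. Cst3 was next, at 128 to 131 and 99.9 to 128 CPM, and these genes made most of the sum. Csf1r was at 0 except in Aged replicate 3, at 7.06 CPM, and Cd14 was at 0 to 0.718 and 0.471 to 2.68 CPM. Neither Csf1r nor Cd14, both at 0 or close to it in most libraries, was lower in aged cells. Cd68, a macrophage gene with more reads, was 17.0, 14.7 and 11.1 CPM in Young replicates 1 to 3. In Aged replicates 1 to 3 it was 6.66, 6.90 and 11.3 CPM. Aged replicates 1 and 2 lay below every young library, and Aged replicate 3 lay just above Young replicate 3. The part of other cells in the difference of Ly6c2 was not tested.

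Ly6c1, the close copy of Ly6c2, was counted at 8.69, 6.82 and 12.3 CPM in Young replicates 1 to 3, from 20, 19 and 32 reads. In Aged replicates 1 to 3 it was counted at 49.7, 134 and 25.4 CPM, from 97, 349 and 54 reads. Every aged library was above every young one, and the aged libraries differed among themselves by up to 5.26 times. The means were 9.27 ± 2.78 and 69.6 ± 56.9 CPM, 7.51-fold higher in aged cells, with a log2 difference of 2.49 ± 0.72 (SE). One library carries much of that size: without Aged replicate 2 the log2 difference was 1.87, and without Aged replicate 3 it was 3.04. Ly6c1 was the least abundant member in both groups by its mean.

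The share of Ly6c1 in the reads of both Ly6c genes shows the same division. It was 0.872% in Young replicate 1 (exact binomial 95% interval 0.533 to 1.34, counting error only), 0.631% in Young replicate 2 (0.380 to 0.984) and 1.36% in Young replicate 3 (0.932 to 1.92). In the aged libraries it was 7.30% in replicate 1 (5.96 to 8.83), 14.6% in replicate 2 (13.2 to 16.1) and 2.91% in replicate 3 (2.20 to 3.78). Every aged share was above every young one, as a description of these libraries, and the intervals take no account of the spread between libraries. The aged mean of this share ran from 5.11% without Aged replicate 2 to 10.9% without Aged replicate 3.

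**Figure D2:**
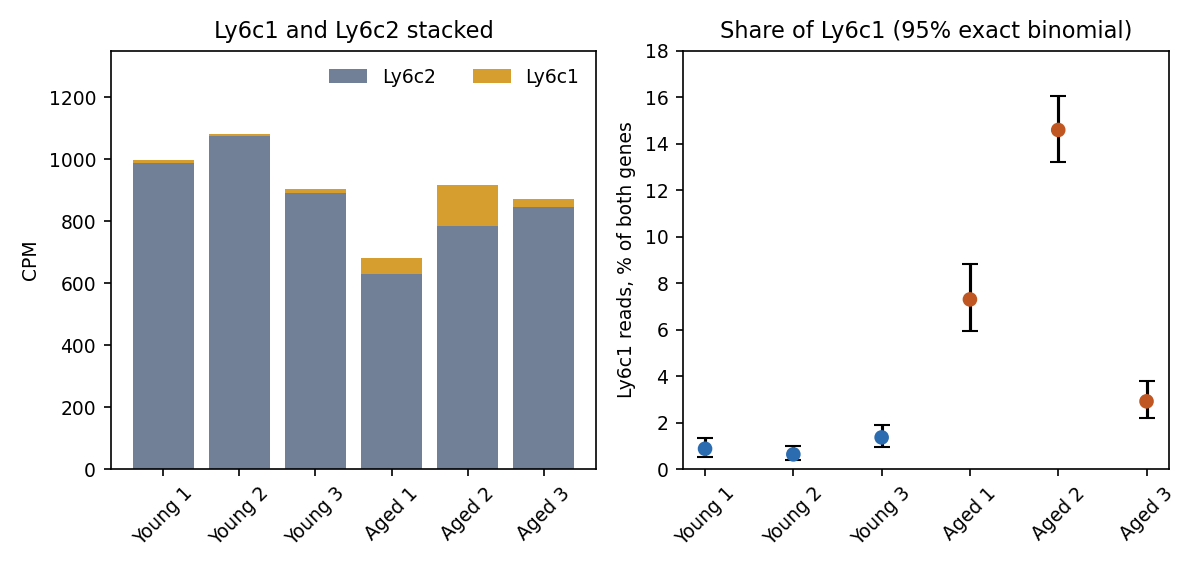
Left, stacked bars of Ly6c2 and Ly6c1 in CPM (y axis, from 0) for each library (x axis). Right, Ly6c1 reads as a percent of the reads of both genes, points with 95% exact binomial intervals that cover counting error only: the young libraries lie between 0.631% and 1.36% and the aged libraries at 7.30%, 14.6% and 2.91%.

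Summing both genes removes the question of how shared reads were divided, though not that of whether they were counted. Ly6c1 and Ly6c2 together were 997, 1081 and 904 CPM in Young replicates 1 to 3 and 681, 917 and 873 CPM in Aged replicates 1 to 3. Aged replicate 2 lay above Young replicate 3, so on the sum the groups overlapped. The means were 994 ± 88.6 and 823 ± 126 CPM, and the log2 difference was -0.28 ± 0.15 (SE), or -0.15 without Aged replicate 1. In Aged replicate 2, the library with the largest Ly6c1 share, the sum of 917 CPM held 134 CPM counted for Ly6c1 and 783 CPM for Ly6c2.

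Ly6g was 102, 99.1 and 82.6 CPM in Young replicates 1 to 3 and 85.5, 128 and 55.1 CPM in Aged replicates 1 to 3, from 117 to 335 reads over all libraries. The aged libraries held both the highest and the lowest value, so the groups overlapped. The means were 94.6 ± 10.5 and 89.7 ± 36.9 CPM and the log2 difference was -0.15 ± 0.36 (SE), less than its error. Without Aged replicate 3 it was 0.15, with the sign turned, and without Aged replicate 2 it was -0.45. Leaving out a young library gave -0.25 to -0.10. The highest aged library was 2.33 times the lowest, and among young libraries this ratio was 1.24.

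LY6G protein is used to identify neutrophils, so neutrophil genes were read in the same libraries. Of 14 such genes 9 were at 0 in all 6 libraries, among them S100a8, Elane, Camp, Ngp, Ltf, Mmp8 and Lcn2, and 12 did not pass 3 reads in any library. The most abundant, Mmp9, was at 3.07 to 8.26 CPM and every other one at 1.92 CPM or less. Their summed level was 4.78 to 8.61 CPM in young and 3.07 to 5.37 CPM in aged libraries, below the level of Ly6g in each library. Aged replicate 2, the library with the most Ly6g, also had the highest neutrophil sum of the aged libraries, 5.37 CPM beside 3.07 and 4.24 CPM. Mmp9 alone made 3.07, 4.60 and 3.76 CPM of these sums in Aged replicates 1, 2 and 3. In these libraries a read is worth 0.512, 0.383 and 0.471 CPM, so the sums rest on few reads. The order of the sums was not tested against counting error. Among the young libraries Young replicate 2 had the highest neutrophil sum and Young replicate 1 the most Ly6g. The part of neutrophils in the spread of Ly6g was not tested.

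**Figure D3:**
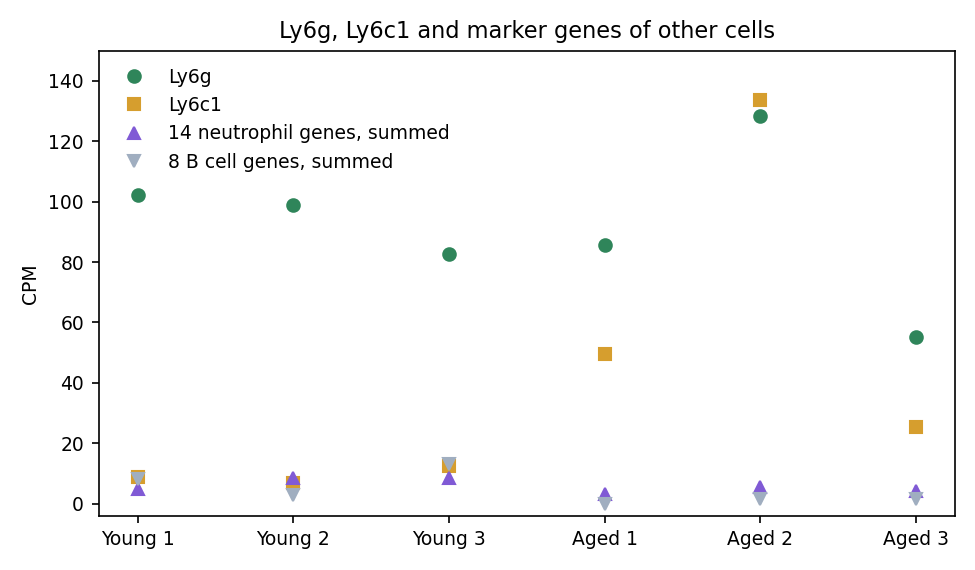
CPM (y axis, linear) of Ly6g, Ly6c1, the sum of 14 neutrophil genes and the sum of 8 B cell genes in each of the 6 libraries (x axis), 1 point per library. Ly6g runs from 55.1 to 128 CPM and the neutrophil sum from 3.07 to 8.61 CPM, and Ly6c1 and Ly6g are both highest in Aged replicate 2.

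Genes of other cells that could remain after isolation were read as sums. The 8 B cell genes summed to 2.87 to 13.1 CPM in young and 0 to 1.53 CPM in aged libraries, with Cd79b the most abundant and genes such as Cd79a, Ms4a1, Pax5 and Blnk at 0 throughout. The 10 dendritic cell genes summed to 85.7 to 101 CPM and 28.2 to 38.9 CPM, led by H2-Ab1 at 55.5 ± 1.50 and 16.8 ± 1.48 CPM. Xcr1 was next, at 23.1 to 36.5 and 6.12 to 12.3 CPM, while Flt3, Clec9a and Siglech were at 0 throughout. H2-Aa, H2-Eb1 and Cd74 were at 1.54 CPM or less, and Itgax, at 0 to 1.54 and 1.53 to 3.07 CPM, was not lower in aged cells. Red cell and platelet genes summed to 10.4 to 22.3 and 1.15 to 4.71 CPM. Hbb-bt led them in the young libraries and was at 0 in every aged one. The 10 fibroblast and endothelial genes summed to 51.7 to 65.3 and 39.9 to 50.2 CPM, led by Pecam1. The 7 NK cell genes summed to 35.7 to 39.1 and 30.3 to 41.0 CPM, and the 4 CD4 T cell genes to 19.6 to 23.7 and 11.3 to 18.9 CPM, led by Zbtb7b. Of these CD4 T cell genes Cd40lg went the other way, at 0.359 to 0.768 and 1.02 to 2.35 CPM, near the floor. Within the NK sum the genes went different ways: Klrb1c, the most abundant, was at 22.8 ± 3.36 and 15.7 ± 3.34 CPM and lower in every aged library, and Klre1 was at 0.768 to 4.67 and 10.4 to 16.4 CPM, higher in every aged library. Their part in the differences of the members was not tested.

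The order of the members by level changed between the age groups. In young cells the means ran from Ly6c2 through Thy1, Ly6a and Ly6e to Ly6g and Ly6c1, and among the 4 abundant genes Ly6c2 and Thy1, and Ly6a and Ly6e, overlapped in their libraries, whereas Thy1 and Ly6a did not. In aged cells they ran from Thy1 through Ly6e, Ly6a and Ly6c2 to Ly6g and Ly6c1, and neighbours among the first 4 overlapped, as did Ly6g and Ly6c1. Ly6g lay below all 4 abundant genes in every library of both groups, and in young cells it lay above Ly6c1 in every library. The ratio of Thy1 to Ly6c2 within a library was 0.987 ± 0.077 in young and 1.55 ± 0.252 in aged cells, and that of Ly6e to Ly6c2 was 0.853 ± 0.117 and 1.48 ± 0.311. In both of these the groups did not overlap. The ratio of Ly6a to Ly6c2 was 0.888 ± 0.102 and 1.33 ± 0.321, and here the groups overlapped, with Aged replicate 3 at 0.962 below Young replicate 3 at 1.01. Such ratios do not depend on how libraries are scaled. All 6 members together made 3758 ± 97.4 CPM in the Young and 4133 ± 356 CPM in the Aged group, with overlap.

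Aged replicate 2 had the highest aged value of Thy1, Ly6a, Ly6c1 and Ly6g, and Aged replicate 1 had the highest of Ly6e and the lowest of Ly6c2. Replicates have no order and the labels name no batch, so these libraries are described as they stand. Over the 6 libraries, on log2(CPM + 1), Ly6c1 and Thy1 had a Pearson r of 0.96, Ly6c1 and Ly6e of 0.92, Ly6e and Thy1 of 0.90, and Ly6e and Ly6c2 of -0.91. Ly6g had an r of -0.06 to 0.23 with the members other than Ly6a, with which it was 0.65. These values over 6 points share the division by age and each library's depth, and are a description with no test.

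The genes whose levels followed each member most closely were taken from 7754 genes whose mean log2 value reached 3 or more. For Thy1 they were Pprc1 (r = 0.997), Tmx1 and Myl12a, and for Ly6e Gins1 (r = 0.997), Faap24 and Utp15. For Ly6c1 they were Edem1 (r = 0.995), Ipo7 and Sf3b5, and for Ly6c2 Mta1 (r = 0.995), Smim3 and Acsbg1. For Ly6a they were Pparg (r = 0.979), Pih1d1 and Pepd, and for Ly6g Srgn (r = 0.976), Ctdsp1 and Slco3a1. Srgn, which encodes the core proteoglycan of cytotoxic granules, was 651, 688 and 597 CPM in Young and 624, 775 and 519 CPM in Aged replicates 1 to 3, highest and lowest in the same libraries as Ly6g. The number of genes with r above 0.95 was 221 for Ly6e, 99 for Thy1, 92 for Ly6c1, 25 for Ly6c2, 9 for Ly6a and 5 for Ly6g.

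For the genes around the members, lists of the rest of the family and of the anchor's pathway were read in a fit over all genes. Calls were made by limma on log2(CPM + 1), two-sided, where the Benjamini-Hochberg adjusted p was under 0.05, and of all genes tested 16.2% were called higher and 12.5% lower in aged cells. With TMM scaling the called genes divided as 1428 higher and 1554 lower, in place of 1701 and 1313, and with upper-quartile scaling as 1306 and 1689. Over all 10 lists together, 142 genes were tested, of which 10 rose and 46 fell, and their median log2 difference was -0.18. The lists were written with earlier results of these data known. The counts of each list below stand beside these shares of all genes, and no list was tested as a set.

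Most other members of the LY6 and urokinase receptor (uPAR) family gave no reads. Of 38 such genes in the files 28 were at 0 in every library and 4 could be tested. Ly6g5b was the most abundant, at means of 57.1 ± 8.39 and 45.9 ± 6.05 CPM in young and aged cells (limma adjusted p = 0.0993). Lypd6b fell (limma adjusted p = 0.000661), with 3.04, 6.82 and 3.46 CPM in the young and 0, 0.383 and 0 CPM in the aged libraries, at the floor. With TMM or upper-quartile scaling, or without Young replicate 2 or Aged replicate 2, 2 genes of this list were called lower.

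The anchor itself is built by an assembly line of PIG proteins, joined to the protein by the GPI transamidase, and trimmed and carried out of the endoplasmic reticulum by further factors. Of 38 tested genes listed for these 3 steps 6 rose and 2 fell in aged cells, and their median log2 difference was 0.00. The 2 that fell include Plcg1, a gene of T cell receptor signalling that is not itself a step of the anchor. The share that rose is close to the 16.2% of all genes called higher and the share that fell is below the 12.5% called lower, so these counts are no result about the pathway, and its genes are given singly. Among the 5 transamidase genes 2 rose: Gpaa1, from 48.1 ± 5.61 to 78.3 ± 4.12 CPM (limma adjusted p = 0.000137), and Pigk, the catalytic subunit, from 25.5 ± 2.04 to 36.5 ± 2.76 CPM (limma adjusted p = 0.0143). Pigt, Pigs and Pigu, the other subunits, were 40.1 and 41.9, 38.8 and 38.7, and 11.4 and 14.8 CPM in young and aged cells and were not called. Of 21 assembly genes Pigq, a subunit of the enzyme of the first step, was the single one called, rising from 18.6 ± 3.99 to 28.4 ± 0.958 CPM (limma adjusted p = 0.016). DESeq2 did not call Pigk or Pigq, nor did limma without Young replicate 2 (log2 differences of 0.46 and 0.44), nor Pigk without Aged replicate 2 (0.46).

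The p24 cargo receptors that carry GPI-anchored proteins out of the endoplasmic reticulum were the other genes of the pathway to rise. Tmed10 rose from 137 ± 5.50 to 207 ± 7.67 CPM (limma adjusted p = 1.1e-05), and Tmed2 from 205 ± 15.4 to 266 ± 6.64 CPM (limma adjusted p = 0.000711). Tmed5 rose from 86.3 ± 4.73 to 107.7 ± 9.90 CPM (limma adjusted p = 0.0214), a call that TMM and upper-quartile scaling and DESeq2 did not make, nor limma without Young replicate 2, Aged replicate 2 or Aged replicate 3 (log2 differences of 0.27, 0.27 and 0.28). Tmed9, of the same family, was 217 ± 18.3 and 245 ± 18.4 CPM (limma adjusted p = 0.106). Of the genes that fell, Plcg1 encodes the phospholipase C that signals below the T cell receptor, at 78.5 ± 5.71 and 56.7 ± 4.62 CPM (limma adjusted p = 0.00323). The lipid remodelling enzyme gene Pgap1 was the other, at 1.30, 2.87 and 2.69 CPM in the young and 0, 0.383 and 0 CPM in the aged libraries, at the floor (limma adjusted p = 0.0173). It was not called by DESeq2, and without Young replicate 2 or Young replicate 3 the 3 lists together had 1 gene called lower.

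Of 19 tested genes of other GPI-anchored lymphocyte proteins, which share the anchor and not the fold, none rose and 3 fell in limma. Their median log2 difference was -0.07, and with no filter on low values 1 was called higher. Of all genes tested 16.2% were called higher and 12.5% lower. The share that fell here is near that, so these counts are no result about such proteins. Cd160, a receptor of cytotoxic lymphocytes, fell from 81.7 ± 1.89 to 46.7 ± 2.72 CPM (limma adjusted p = 1.57e-05). Prnp, the prion protein gene, fell from 32.6 ± 6.27 to 15.2 ± 3.83 CPM (limma adjusted p = 0.000537). Nt5e, the gene of the adenosine-producing enzyme CD73, was called lower at 2.61, 3.59 and 3.46 CPM in the young and 1.02, 0 and 0.941 CPM in the aged libraries (limma adjusted p = 0.0179), a call lost with DESeq2 and when Young replicate 2, Young replicate 3 or Aged replicate 2 was left out (log2 differences of -1.35, -1.37 and -1.08). Cd52, the most abundant, was 1834 ± 74.8 and 1750 ± 196 CPM (limma adjusted p = 0.445), and Cd48, a ligand of CD244, was 108 ± 9.99 and 105 ± 23.6 CPM (limma adjusted p = 0.743). H2-Q7, a non-classical MHC gene with close copies that could share its reads, was 563 ± 32.8 and 541 ± 35.3 CPM (limma adjusted p = 0.549).

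**Figure D4:**
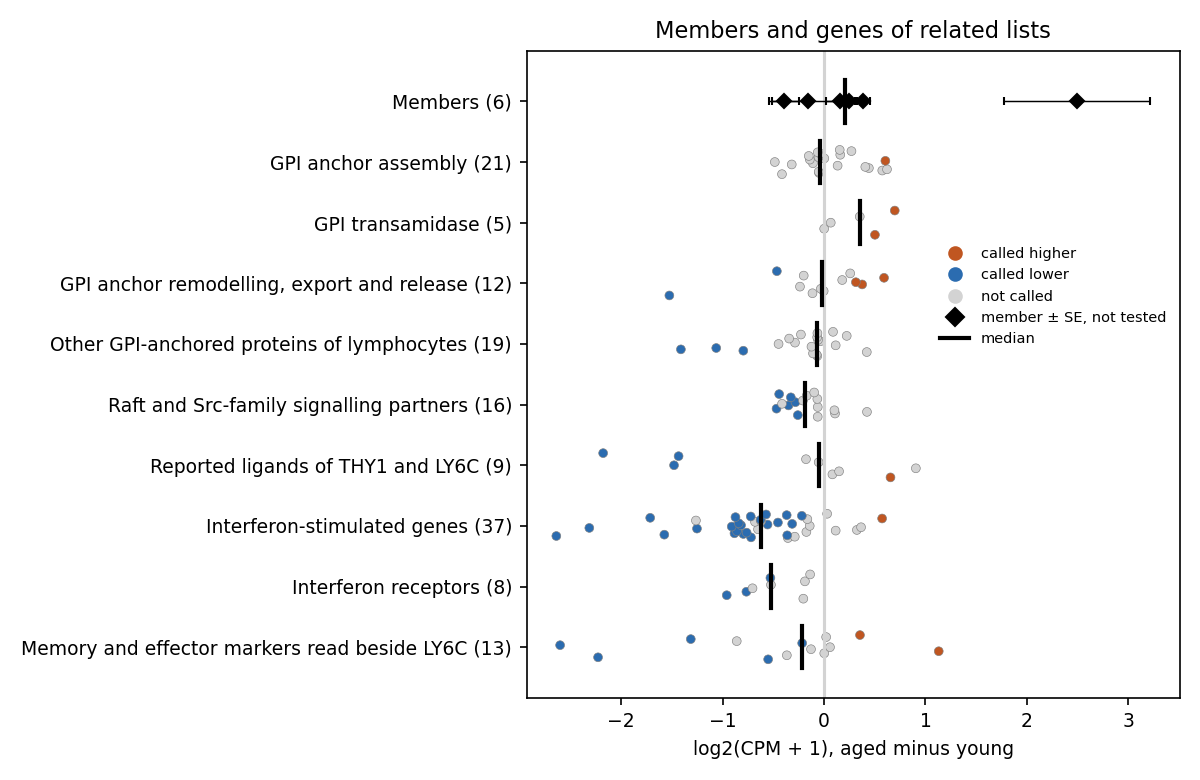
Difference between aged and young cells on log2(CPM + 1) (x axis) for the 6 members (diamonds, bars ± SE, not tested) and for the tested genes of 9 related lists (rows, with the number of genes), coloured by limma call, with a vertical bar at each median. The interferon-stimulated genes lie mostly left of 0, with a median of -0.62, while the medians of the members and of the GPI transamidase genes are 0.20 and 0.35. The members were chosen with this contrast in view, so nothing is read from their median.

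Of 16 tested genes of membrane rafts and Src-family signalling, the surroundings of anchored proteins, 6 fell and none rose, with a median log2 difference of -0.19. Cd2, an adhesion receptor of T cells, fell from 378 ± 18.9 to 278 ± 21.1 CPM (limma adjusted p = 0.000107) and Ptprc, the gene of the phosphatase CD45, from 1396 ± 60.4 to 1150 ± 77.2 CPM (limma adjusted p = 0.000939). Pag1, the raft adaptor that binds the kinase CSK, fell from 58.3 ± 4.41 to 41.8 ± 1.36 CPM (limma adjusted p = 0.00549). Fyn, the Src-family kinase found with THY1, fell from 236 ± 13.8 to 197 ± 8.93 CPM (limma adjusted p = 0.0136), a call lost without Young replicate 2 or Aged replicate 2 (log2 differences of -0.21 and -0.22). Ptpn22, a phosphatase that acts on Src kinases, fell from 105.2 ± 3.43 to 83.9 ± 8.43 CPM (limma adjusted p = 0.0165), a call lost without Young replicate 3, Aged replicate 1 or Aged replicate 2 (log2 differences of -0.30, -0.31 and -0.26). Lck, the kinase that binds CD8, was 326 ± 7.32 and 313 ± 18.8 CPM (limma adjusted p = 0.541), and Lat, a raft scaffold, was 192 ± 5.45 and 184 ± 11.8 CPM (limma adjusted p = 0.601).

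Among 9 tested genes of proteins reported to bind THY1 or to act with LY6C, 1 rose and 3 fell, with a median log2 difference of -0.05. Of all genes tested 16.2% were called higher and 12.5% lower, so the 1 that rose is no result about this list. Adgre5, the gene of CD97, an adhesion receptor that binds THY1, fell from 46.4 ± 16.6 to 9.06 ± 0.758 CPM (limma adjusted p = 6.3e-07). Itgb3, an integrin chain whose complexes bind THY1, rose from 43.7 ± 10.2 to 70.0 ± 20.9 CPM (limma adjusted p = 0.0114), though Young replicate 3 at 50.3 CPM was above Aged replicate 3 at 49.9 CPM. Without Young replicate 2 or Aged replicate 2 this call was lost (log2 differences of 0.45 and 0.44). Sdc4 and Itgam, the other genes called lower, were at 1.02 CPM or less in the aged libraries, within the floor, and DESeq2 called neither. Without Young replicate 3, with DESeq2, or at a mean of at least 5 CPM, 1 gene of this list was called lower; Sdc4 also lost its call without Young replicate 2 (log2 difference of -1.24), and Itgam without Young replicate 1 or Aged replicate 1 (-1.25 and -1.24). Itgal and Itgb2, the chains of the integrin LFA-1, were 399 ± 5.37 and 355 ± 46.3, and 217 ± 18.1 and 210 ± 16.1 CPM (limma adjusted p = 0.106 and 0.689), and Itgal was called lower in 7 of 17 alternatives.

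Ly6a, Ly6c1, Ly6c2 and Ly6e are known to be induced by interferons, so other interferon-stimulated genes were set beside them. Of 37 tested genes 1 rose and 23 fell in aged cells, with a median log2 difference of -0.62, and over the alternatives 20 to 24 were called lower. The other 13 were not called, and some are named after their values were seen. Isg15, Ifit2, Mx1 and Rsad2 had log2 differences of -0.36, -0.29, -0.17 and -0.65. Those of Bst2, Usp18 and Ifi35 were 0.11, 0.32 and 0.37. Gbp2, a guanylate-binding protein gene, fell from 87.0 ± 7.25 to 26.0 ± 4.55 CPM (limma adjusted p = 3.3e-08). Ifi27l2a fell from 29.9 ± 2.71 to 5.34 ± 1.60 CPM (limma adjusted p = 4.54e-07), and Gbp7 and Dtx3l fell from 377 to 228 and from 186 to 104 CPM. Tap1, the gene of a part of the transporter that supplies peptides for MHC class I, fell from 241 ± 16.5 to 162 ± 7.58 CPM (limma adjusted p = 1.73e-05). Socs1, a feedback inhibitor of the pathway, was the gene that rose, by 0.57 on the log2 scale (limma adjusted p = 0.00285), and was named after its value was seen.

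Of 8 genes of the interferon and interleukin 27 receptors and their kinases, 3 fell and none rose, with a median log2 difference of -0.53. Ifngr1, the ligand-binding chain of the interferon gamma receptor, fell from 311 ± 11.9 to 183 ± 7.79 CPM (limma adjusted p = 2.13e-07) and Ifnar2, of the type I receptor, from 64.1 ± 7.41 to 32.5 ± 3.36 CPM (limma adjusted p = 1.9e-05). Jak2 fell from 39.0 ± 3.99 to 27.1 ± 5.72 CPM (limma adjusted p = 0.0201), a call lost with DESeq2 and without Young replicate 2 or Aged replicate 2 (log2 differences of -0.45 and -0.37). Jak1, the kinase shared by these receptors, was 633 ± 14.9 and 558 ± 60.4 CPM (limma adjusted p = 0.0518) and was called lower in 11 of 17 alternatives. Beside these, of the interferon-inducible members Ly6c2 was lower, Ly6e and Ly6c1 were higher and Ly6a overlapped between the groups. The division of reads between Ly6c1 and Ly6c2 is uncertain, and on their sum the groups overlapped. Whether interferon signalling has a part in the members' differences was not tested.

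LY6C is usually read with other markers of naive, memory and effector CD8 T cells. Of 13 tested genes of this kind, which include the transcription factors Tbx21 and Eomes, 2 rose and 5 fell. Their median log2 difference was -0.22. Of all genes tested 16.2% were called higher and 12.5% lower, so the number that rose here is near the share of all genes. Ccr7, a chemokine receptor that guides T cells into lymph nodes, fell from 29.0 ± 2.57 to 4.44 ± 2.53 CPM (limma adjusted p = 4.41e-06). Cd27, a costimulatory receptor, fell from 47.7 ± 5.96 to 18.5 ± 1.14 CPM (limma adjusted p = 2.89e-06) and Cd44, an activation and memory marker, from 244 ± 5.21 to 166 ± 0.682 CPM (limma adjusted p = 9.89e-06). Klrg1, a marker of terminal effector cells, rose from 5.98 ± 2.60 to 13.9 ± 3.40 CPM (limma adjusted p = 0.00588), and Eomes, a transcription factor of memory cells named after its value was seen, was 0.35 higher on the log2 scale (limma adjusted p = 0.0112). With upper-quartile scaling, with DESeq2, and without Young replicate 3 or Aged replicate 3, Klrg1 alone was called higher and the call of Eomes was lost. Spn, the gene of CD43, fell from 415 ± 21.4 to 357 ± 5.67 CPM (limma adjusted p = 0.0151), a call lost without Young replicate 2 (log2 difference of -0.18). Il2rb, the receptor chain for IL-2 and IL-15, was 1035 ± 12.3 and 1038 ± 46.5 CPM (limma adjusted p = 0.983).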

How the data were processed

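RNA of cultured CD8 T cells was sequenced from the 3' end with the QuantSeq kit, per the labels' protocols, in 3 Young and 3 Aged libraries. The genome build was GRCm38 (mm10), as the submitters' processing notes name it, and no aligner, annotation or counting program is given in the sources used here. For each library the authors deposited CPM values for 25655 gene identifiers. One identifier has a blank value and was left out, and 25599 of the others have a symbol in the table of gene names. Within 0.001 reads, 100% of values came out as whole reads, so reads were recovered from the CPM steps. The file of Aged replicate 2 names its column as replicate 3 and was taken as replicate 2, as the sample record lists it.

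Sample titles gave the groups and replicate numbers. Members, lists and tests were chosen with earlier results of these data known. The test was limma 3.58.1 (R 4.3.3) with an intensity trend on log2(CPM + 1), two-sided, Benjamini-Hochberg adjusted, over 10511 genes whose mean reached 1 CPM, and the log2 scale understates changes of low genes. It was tested on simulated data. Named genes were the members, up to 5 called genes with the smallest p and up to 3 further abundant genes of each list, the most abundant gene of each cell type list, and the 3 genes of highest r with each member; some of them are not reported here. Older symbols were matched through RefSeq synonyms. Alternatives were TMM, RLE and upper-quartile scaling, no filter or a mean of at least 5 CPM, pseudocounts of 0.1 and 5 CPM, the replicate number as a block, leaving out each library, and count fits by edgeR 4.0.16, DESeq2 1.42.0 and limma-voom. Gene positions and transcript ends came from the GENCODE annotation of GRCm38, and promoters from RefSeq.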

Additional observations from a re-analysis of the deposited data

How the results depend on the processing

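Over the alternatives other than left-out libraries, the log2 differences of the members and of the Ly6c sum kept their direction: Ly6c1 ran from 2.12 to 2.90, Ly6c2 from -0.47 to -0.39, the sum from -0.36 to -0.28, Ly6a from 0.08 to 0.16 and Ly6g from -0.24 to -0.11. With upper-quartile scaling that of Ly6e was 0.30 and that of Thy1 0.16. Leaving out each library in turn, Ly6g ran from -0.45 to 0.15, its sign turning without Aged replicate 3, Ly6c1 from 1.87 to 3.04, Ly6a from 0.05 to 0.29 and the sum from -0.36 to -0.15. The cause of these shifts was not tested.

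With DESeq2, 944 genes were called higher and 1014 lower over all genes. In the GPI anchor lists it called 3 higher and 1 lower, and over all lists together 6 higher. With a mean of at least 5 CPM, 1 gene of the GPI anchor lists, Plcg1, was called lower, Pgap1 being too low to be tested. Leaving out each library, the count called lower in these lists ran from 1 to 2. Leaving out a library gave 1322 to 1582 genes called higher and 1011 to 1207 lower. RLE scaling gave 1451 and 1531, edgeR 1443 and 1555, and limma-voom 1436 and 1520. The median log2 difference of all genes was -0.02 with TMM and -0.05 with upper-quartile scaling. Of 38 named list genes called, 25 kept the call in all 17 alternatives that tested them, and 13 lost it in 1 or more.

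With the replicate block 1725 genes were called higher and 1336 lower. Same-numbered libraries did not deviate together (correlations of 0.021, 0.00025 and 0.0028), so the numbers were not taken to pair the samples. Depth limits what is said of genes near 3 reads per library, and 3 libraries per group limit the error of every member, that of Ly6c1 and Ly6g most. Leaving out single libraries does not test whether the libraries are separate mice.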
